A study of Rattus norvegicus with 141 samples.

Results

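The urea cycle and the breakdown of glutamine, histidine and serine were followed through 10 genes, Cps1, Otc, Ass1, Asl, Arg1, Arg2, Glul, Gls2, Hal and Sds, which were chosen by their symbols from the 30562 genes of each count table. All 10 were listed in the tables of liver, duodenum and stomach. Their identifiers there are ENSRNOG00000013704 (Cps1), ENSRNOG00000003370 (Otc), ENSRNOG00000008837 (Ass1), ENSRNOG00000000903 (Asl), ENSRNOG00000013304 (Arg1), ENSRNOG00000053811 (Arg2), ENSRNOG00000049560 (Glul), ENSRNOG00000031612 (Gls2), ENSRNOG00000004502 (Hal) and ENSRNOG00000001388 (Sds). The study gave adult Sprague-Dawley rats of wild-type genotype (WT in the labels) microplastics at a low dose of 5 mg/kg or a high dose of 50 mg/kg, or vehicle alone, in both sexes, and sequenced polyA RNA from the 3 tissues. The 18 groups of tissue, sex and treatment held 8 libraries each, except 7 from the duodenum of female controls and 6 from the liver of high-dose females, which gave 141 libraries. Neither the polymer, the route nor the length of exposure is given in the labels, and all rats were fed a standard chow. Each library came from several frozen tissue pieces ground together, so it is a mixture of cell types.

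In the urea cycle, Cps1 (carbamoyl phosphate synthetase) and Otc (ornithine transcarbamylase) work in mitochondria and make citrulline. Ass1 (argininosuccinate synthetase), Asl (argininosuccinate lyase) and Arg1 (the cytosolic arginase) then form arginine and split it into urea and ornithine. The full cycle is a property of hepatocytes, while enterocytes of the small intestine carry its mitochondrial steps and release citrulline. Arg2 is the mitochondrial arginase. Glul (glutamine synthetase) makes glutamine from ammonia and glutamate and, in liver, sits in the hepatocytes around the central vein, and Gls2 (liver-type glutaminase) splits glutamine in the periportal hepatocytes. Hal (histidine ammonia-lyase) and Sds (serine dehydratase) take the first step in the breakdown of histidine and serine.

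For 3 of the genes the 250 bases before the start are shown, because these genes separate the tissues differently: Cps1 and Otc were high in both liver and duodenum, and Ass1 in liver alone. RefSeq promoter entries (GRCr8, positions of that build) were found for 6 of the 10 genes (Cps1, Otc, Ass1, Asl, Glul and Gls2). The windows are chr9:76063613-76063862 on the plus strand for Cps1, chrX:15202474-15202723 on the minus strand for Otc and chr3:35149480-35149729 on the plus strand for Ass1, each written 5′ to 3′ along its gene. Capitals mark a match to a searched motif: the core letters of HNF4 sites (CAAAGT, here on the opposite strand) in Cps1, the core letters of CDX factors (TTTATG, opposite strand) in Otc, and TATAAA on the opposite strand in Ass1.
Cps1: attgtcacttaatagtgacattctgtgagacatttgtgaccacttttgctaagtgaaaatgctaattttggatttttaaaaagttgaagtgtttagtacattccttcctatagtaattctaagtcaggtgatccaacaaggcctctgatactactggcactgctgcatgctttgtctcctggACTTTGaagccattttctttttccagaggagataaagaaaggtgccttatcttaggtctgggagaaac
Otc: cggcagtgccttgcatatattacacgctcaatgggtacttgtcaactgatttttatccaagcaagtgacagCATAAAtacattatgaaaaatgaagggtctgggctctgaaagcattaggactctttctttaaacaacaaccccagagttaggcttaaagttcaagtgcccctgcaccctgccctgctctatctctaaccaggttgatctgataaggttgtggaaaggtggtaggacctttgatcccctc
Ass1: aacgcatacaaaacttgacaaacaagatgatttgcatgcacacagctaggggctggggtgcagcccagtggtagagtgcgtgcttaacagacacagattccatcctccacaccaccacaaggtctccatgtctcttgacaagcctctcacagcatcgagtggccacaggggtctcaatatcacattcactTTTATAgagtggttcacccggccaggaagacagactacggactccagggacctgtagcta
The matches began 68, 179 and 60 bases before the start of Cps1, Otc and Ass1. On both strands together, CAAAGT was found in 12.9% of the 33469 rat windows of this length, TTTATG in 11.4% and TATAAA in 12.9%, so single matches of this kind were common. Glul also held CAAAGT, 228 bases before its start, whereas GTTAAT (from HNF1 sites) and TTGCNNAA (from C/EBP sites), present in 6.45% and 9.22% of all windows, were found in none of the 6.

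Library totals ran from 6153368 to 23716967 estimated counts in the 46 liver libraries, from 5470039 to 25503801 in the 47 of duodenum and from 4947825 to 23940175 in the 48 of stomach. Levels are given as CPM, the count scaled to the library total. Hepatocyte markers (7 of 8 listed genes in the tables) summed to between 93436 and 152229 CPM in the control livers, and enterocyte markers (9 of 9) to between 4451 and 21604 CPM in the control duodena. Hepatocyte markers summed to 3.19 to 67.5 CPM in the control duodena, and enterocyte markers to 324 to 1494 CPM in the control livers, and no gene of either list was at 0 in all libraries of a tissue. Pancreatic acinar markers ranged from 0.438 to 42199 CPM over the duodenum libraries. One library stood apart for these genes: the duodenum of male control replicate 1 had the lowest Cps1, Otc and Arg2 of its tissue's controls and the highest Glul, together with the highest summed smooth muscle markers of all 47 duodenum libraries (6241 CPM). In liver, female high-dose replicate 4 stood apart for 4 of the genes. Values that rest on either library are given with and without it where they moved.

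All urea cycle enzymes except Arg2 were higher in liver than in duodenum, but by very different amounts. Cps1 averaged 3481 ± 695 CPM (SD, n = 16) in control livers, with a lowest, median and highest library of 2235, 3531 and 4516. In control duodena it averaged 1486 ± 399 CPM (SD, n = 15), with 514, 1548 and 2069, and without the library that stood apart the mean was 1555 and the lowest value 1112. The pooled liver level was therefore only 2.46 times that of duodenum, and the groups just failed to overlap. The second mitochondrial enzyme followed the same pattern. Otc averaged 402 ± 37.6 CPM in liver (336 to 463) and 200 ± 25.8 CPM in duodenum (156 to 254), a ratio of 2.03.

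The cytosolic enzymes were far higher in liver. Ass1 averaged 2844 ± 458 CPM in liver (2184, 2933 and 3610 as lowest, median and highest) against 3.86 ± 1.81 CPM in duodenum (1.69, 3.29 and 8.03), and the pooled levels differed 802-fold (95% counting interval 740 to 871). Asl averaged 388 ± 112 CPM in liver and 8.31 ± 1.59 in duodenum, a ratio of 50.4. Arg1, which releases urea, averaged 860 ± 251 CPM in liver and 4.22 ± 1.32 in duodenum, a ratio of 207. No duodenum control library came near a liver library for any of these 3 genes. Counting intervals here cover counting error only, not the spread between animals.

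Stomach carried little of the cycle. Cps1 was read in 7 of 16 control stomachs, with 26 counts in all and a mean of 0.181 CPM, and Otc in 11, with 29 counts and 0.199 CPM. Duodenum and stomach therefore differed 8355-fold in pooled Cps1 (5702 to 12790) and 1029-fold in Otc (717 to 1536). The cytosolic enzymes ran the other way: Ass1 was 3.83 times higher in stomach (13.7 ± 1.87 CPM, n = 16) and Asl was higher too (15.6 ± 1.62 CPM, a log2 difference of duodenum minus stomach of -0.98), with no overlap with duodenum. Arg1 was 1.52 times higher in stomach (6.39 ± 1.14 CPM), and its libraries overlapped with those of duodenum. One low-dose stomach, of female replicate 4, held 208 of the 296 Cps1 counts and 46 of the 135 Otc counts of all stomach libraries. Its enterocyte markers summed to 190 CPM, against a median of 67.9 and a highest of 195 CPM among low-dose stomachs. The part of these markers was not tested.

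The 2 arginases traded places. Arg2 averaged 175 ± 46.03 CPM in control duodena, with 37.3, 190 and 220 as lowest, median and highest, and 185 CPM without the library that stood apart, whose next neighbour was at 127. The 16 control livers held 2 counts of Arg2 together, one in each of 2 libraries. The pooled ratio of duodenum to liver was 16333 with a counting interval of 4521 to 134866. In stomach Arg2 averaged 1.69 ± 0.497 CPM, so the pooled level in duodenum was 98.0 times higher.

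The genes of glutamine synthesis and breakdown peaked in different tissues, and both had their lowest mean in duodenum. Glul was highest in stomach (1202 ± 202 CPM, n = 16, from 855 to 1584), lower in liver (368 ± 85.6 CPM, from 213 to 527) and lowest in duodenum (110 ± 46.3 CPM, from 69.6 to 248). Stomach did not overlap with the others, whereas liver and duodenum overlapped only through male control replicate 1, without which the highest duodenum was at 158 CPM. Gls2 was highest in liver (219 ± 70.9 CPM) and similarly low in stomach (8.37 ± 2.58 CPM) and duodenum (6.03 ± 2.45 CPM), whose libraries overlapped.

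Hal and Sds were read almost only in liver. Hal averaged 454 ± 178 CPM in control livers, whereas the control duodena held 8 counts in 7 libraries and the control stomachs 87 counts. The pooled ratio of liver to duodenum was 9374 (4758 to 21713). Sds averaged 26.9 ± 26.3 CPM in liver, with 3.09, 18.2 and 97.5 as lowest, median and highest, and gave 1 count over all control duodena and 1 over all control stomachs. Its ratio of liver to duodenum, 4589, had a counting interval from 824 to 181268. The wide spread of both genes in liver divided by sex, as described below.

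**Figure D1:**
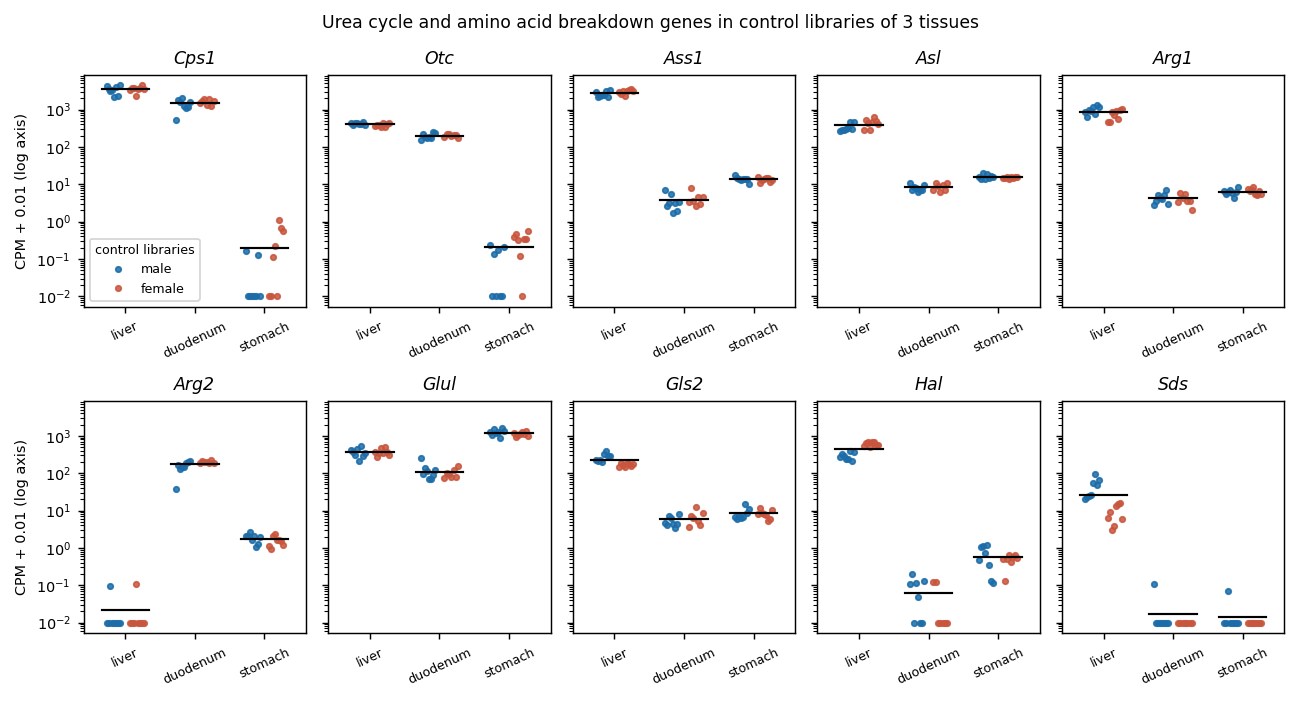
Levels of the 10 genes in the vehicle control libraries of liver, duodenum and stomach (vertical axis, CPM + 0.01 on a log scale; each point is 1 library, coloured by sex; lines, means). Cps1 and Otc stand high in liver and duodenum, Ass1, Asl, Arg1, Gls2, Hal and Sds in liver alone, Arg2 in duodenum and Glul in stomach.

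In 1 model of all control libraries (edgeR quasi-likelihood test, TMM scaling, Benjamini-Hochberg over 16033 genes), each of the 10 genes differed between liver and duodenum, 9 higher in liver and Arg2 lower. Such differences were the rule: 82% of all genes passed (36.7% higher in liver, 45.2% lower), and in 46% of all genes the libraries of the 2 tissues did not overlap, as for 9 of the 10. Hal, Sds and Arg2 passed the filter on low counts through the tissue where they were high. The fitted difference of liver minus duodenum was 2.31 ± 0.18 (log2, SE) for Cps1 (edgeR adjusted p = 1.08e-15), 2.08 ± 0.11 for Otc, 10.64 ± 0.18 for Ass1, 6.62 ± 0.10 for Asl, 8.72 ± 0.19 for Arg1, 2.88 ± 0.13 for Glul and 6.23 ± 0.18 for Gls2. These values lie above the CPM ratios because TMM scaling moved the comparison by 1.09 (log2) in favour of liver. On library totals alone 14639 genes passed, 2291 higher in liver (15.7%) and 12348 lower, against 5892 higher and 7254 lower with TMM. Each of the 10 genes kept its direction under both. Against stomach, all 10 genes differed from liver by the same test (82.8% of all genes did), with Glul lower in liver by 0.67 ± 0.12. Cps1, Otc, Hal and Sds entered that comparison through liver, and Arg2 through the gut, so the count over all 10 is not read further. Between duodenum and stomach 9 passed, all but Sds (76.9% of all genes did). Hal and Sds entered that comparison through liver, and Cps1 and Otc did not pass the filter in stomach alone. That count over all 10 is not read further either.

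The wider amino acid enzymes, in lists of 112 genes on pathways, regulators and liver zones, were mostly higher in liver. The counts of each list stand beside 36.7% of all genes higher in liver and 45.2% lower. Listed genes with almost no counts in duodenum could not pass the filter on low counts through it, so their direction was set in advance. Among genes that support the urea cycle 8 of 11 were higher in liver and 2 lower, with a median log2 difference of 1.60, against -0.13 over all genes tested. Car5a, the mitochondrial carbonic anhydrase that supplies bicarbonate to Cps1, averaged 44.7 CPM in liver and had 1 count over the control duodena, Gpt2 (alanine aminotransferase) 204 against 4.16 CPM, and Slc25a13 (the aspartate and glutamate carrier) 269 against 33.02 CPM. The glutamine, arginine, ornithine and proline list was split, with 6 of 11 higher in liver, 4 lower and a median of 0.21. In that list Aldh18a1, which opens the route from glutamate to proline and ornithine, averaged 0.854 CPM in liver and 297 in duodenum, and Prodh (proline dehydrogenase) 207 and 31.7.

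In the histidine breakdown list 3 of 4 genes were higher in liver. Uroc1 (urocanase) was at 328 CPM with 3 counts over the control duodena. Amdhd1 was at 118 CPM with 5 counts, and Ftcd at 286 against 0.305 CPM. In the serine, glycine and threonine list 9 of 13 were higher in liver and 2 lower (median 2.37), led by Agxt (122 CPM and 6 counts), Gldc (71.8 against 0.157 CPM) and Gcat (52.4 against 6.93 CPM). All 6 genes of phenylalanine and tyrosine breakdown were higher in liver, with Hpd at 2995 against 0.23 CPM, Tat at 387 against 0.079 CPM and Hgd at 234 against 0.0714 CPM. All 6 tested genes of tryptophan breakdown were too, with Tdo2 at 668 against 0.169 CPM, Haao at 204 against 0.187 CPM and Acmsd at 29.3 CPM with 1 count in duodenum. Of the branched chain genes 12 of 15 were higher and 2 lower (median 2.04), with Acadsb at 226 against 20.6 CPM, Bckdha at 119 against 24.01 CPM, and the cytosolic aminotransferase Bcat1 the other way at 0.0583 against 6.21 CPM. Methionine and cysteine genes were higher in 9 of 10 and lower in 1, with Bhmt at 5411 against 0.709 CPM, Mat1a at 1911 against 1.63 CPM and Bhmt2 at 558 CPM with 3 counts in duodenum. Lysine breakdown was higher in 5 of 5, including Aadat, Dhtkd1 and Aass, the last at 221 against 2.38 CPM. These counts too stand beside 36.7% of all genes higher in liver and 45.2% lower. Genes with almost no counts in duodenum could only be called higher in liver. Counts of lists that hold many such genes are therefore not read further. With genes of few counts held at 3 counts per group, and on library totals, the median difference was 5.44 for the 10 genes, 0.56 for the supporting genes and 10.93 for histidine breakdown, beside -1.17 over all genes tested. On that scale the glutamine, arginine, ornithine and proline list was at -0.88 and the pericentral zone list at -0.89, so the sign of both medians depended on the scaling.

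Regulators of these genes were also mostly on the liver side. Of 11, 10 were higher in liver and 1 lower (median 2.27), beside 36.7% of all genes higher and 45.2% lower. Onecut1 (HNF6) averaged 91.5 CPM in liver and 0.14 in duodenum, Gcgr (the glucagon receptor) 66.2 and 1.74, and Klf15 39.8 and 7.28. Periportal zone genes were higher in liver in 5 of 7 and lower in 2 (median 2.52), and pericentral zone genes higher in 6 of 11 and lower in 5 (median 0.17).

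No gene of the 10 differed between either dose and vehicle in any tissue by the edgeR test, whose calls are made at an adjusted p under 0.05 over all genes tested. In duodenum the high dose changed 16.3% of all genes (2481 of 15189; 1330 higher and 1151 lower), and 0 of the 8 tested members were among them, while the low dose changed 0% (2132 genes at an unadjusted p under 0.05; 18 by DESeq2 and 3 by limma voom). In stomach the high dose changed 4.49% of all genes (680 of 15140) and 0 of 6 tested members, and the low dose 0% (909 unadjusted; 28 by DESeq2 and 0 by voom). In liver neither dose changed any gene (0% at each; 272 and 446 unadjusted, 0 by DESeq2 and by voom), and none of the 9 tested members. A missed threshold does not show that levels were equal, and the sizes of the differences are given with their errors below.

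Cps1 in duodenum came nearest to a dose difference. Its lowest, median and highest libraries were 514, 1548 and 2069 CPM with vehicle, 1298, 1832 and 2154 at 5 mg/kg and 1322, 1766 and 2338 at 50 mg/kg. The groups overlapped over most of their range. The log2 difference from vehicle was 0.29 ± 0.11 (SE) at the low dose (edgeR adjusted p = 0.256) and 0.20 ± 0.11 at the high dose (adjusted p = 0.183), so the higher dose did not give the larger value. Without male control replicate 1 the differences were 0.23 and 0.14. Within batch 1 alone they were 0.18 and 0.10, and within batch 2 alone 0.42 and 0.29.

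In the fit of all duodenum libraries the other genes moved less than Cps1. Asl was at 0.01 ± 0.07 at the low and -0.03 ± 0.12 at the high dose. Errors derived from p are unstable for differences this small. Otc had medians of 196, 212 and 219 CPM from vehicle to high dose, with log2 differences of 0.08 ± 0.08 and 0.13 ± 0.08. Arg2 had medians of 190, 182 and 188 CPM and differences of 0.03 ± 0.14 and 0.15 ± 0.14, which became -0.04 and 0.08 without male control replicate 1. Glul had medians of 93.8, 104 and 100.2 CPM, and its differences of -0.06 at the low and -0.08 ± 0.09 at the high dose became 0.06 and 0.03 without that library. Ass1 went from -0.14 to -0.03 at the low dose and from 0.01 to 0.12 at the high dose in the same way. Without female low-dose replicate 1, which held 248 CPM of summed hepatocyte markers, low-dose Ass1 was at -0.29 and Arg1 at 0.08. The part of those markers was not tested. For Arg1 the differences were 0.17 ± 0.16 and 0.18 ± 0.16, with batch 1 at -0.31 and batch 2 at 0.47 for the high dose. Gls2 also split by batch at the high dose, with 0.19 ± 0.14 in all batches, -0.07 in batch 1 and 0.65 ± 0.19 in batch 2, where it passed on its own (edgeR adjusted p = 0.0399). Without female control replicate 4, which had the highest Gls2 of the control duodena (12.5 CPM) and 42199 CPM of pancreatic acinar markers, its differences were 0.295 at the low and 0.33 at the high dose. Over the 47 duodena Gls2 had r = 0.53 with the acinar markers, given as a description, and their part in its dose differences was not tested. The median over the 8 tested members was 0.06 at the low dose and 0.14 at the high dose, beside -0.01 and -0.02 over all genes tested.

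**Figure D2:**
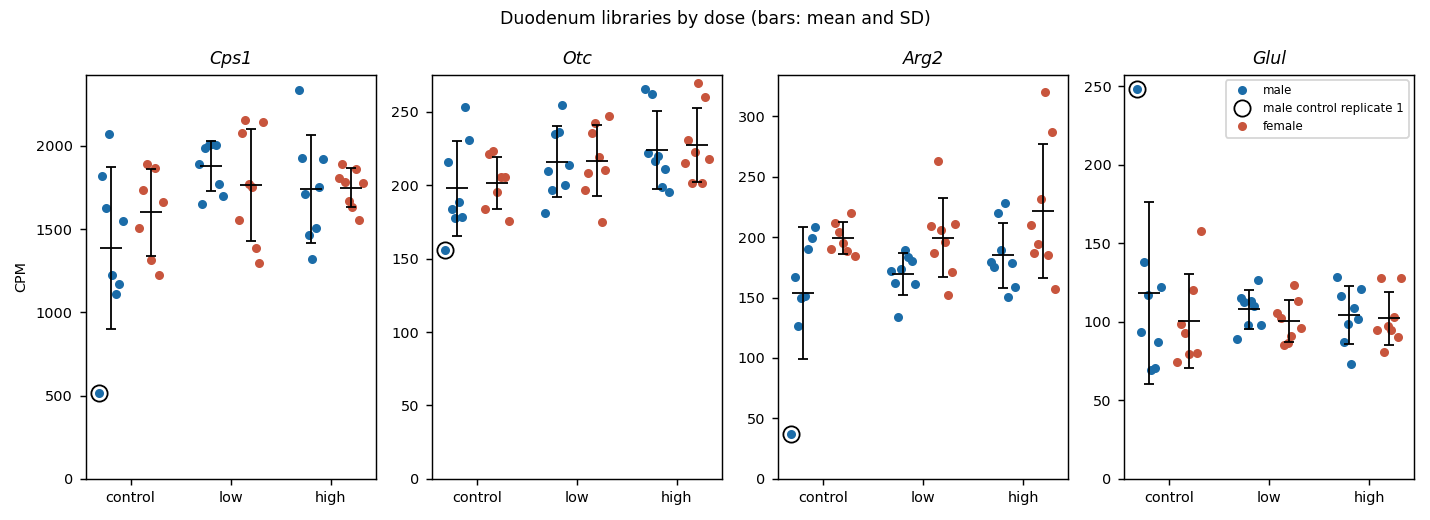
Levels of Cps1, Otc, Arg2 and Glul in duodenum by treatment and sex (vertical axis, CPM; each point is 1 library; bars, mean and SD of each group). Vehicle and dose groups overlap in each panel, and the circled male control replicate 1 is lowest for Cps1 (514 CPM), Otc and Arg2 and highest for Glul (248 CPM).

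Some measures of the whole library had other medians at the high dose in the gut. The share of counts from 77 ribosomal protein genes had medians of 3.22%, 3.57% and 4.61% in duodenum from vehicle to high dose, and 2.20%, 2.29% and 3.09% in stomach. Its vehicle and high-dose ranges overlapped in duodenum (2.21% to 4.19% and 2.43% to 7.67%) and in stomach (1.84% to 4.755% and 2.175% to 5.70%). Neither this share nor the marker sums below were tested against dose. The 8 macrophage markers in duodenum summed to medians of 1085, 1232 and 1454 CPM (ranges 522 to 2645, 609 to 2090 and 788 to 3106), smooth muscle markers to 3067, 2942 and 3343 CPM and enterocyte markers to 9702, 8250 and 8706 CPM. At the high dose 2 of 9 enterocyte markers were lower (median -0.71) and 1 of 7 macrophage markers higher by edgeR, beside 16.3% of all genes. With the ribosomal share as a covariate, the high dose called 0 genes in duodenum in place of 2481 and 1 in stomach in place of 680. With the enterocyte markers as a covariate it called 2635 genes in duodenum, and 0 members were called there under either. The part of macrophage and smooth muscle markers was not tested. In bulk tissue, fewer cells of a type and less RNA per cell cannot be told apart.

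In liver the members stayed close to vehicle. Cps1 had medians of 3531, 3580 and 3493 CPM and log2 differences of -0.10 ± 0.09 at the low and -0.03 ± 0.09 at the high dose. Otc was at -0.10 ± 0.07 and -0.07 ± 0.07, and Ass1 at -0.08 ± 0.08 and 0.03 ± 0.08. For these 3 genes the 95% intervals of the high-dose difference ran from -0.21 to 0.15, from -0.21 to 0.07 and from -0.13 to 0.19. Arg1 was at 0.14 ± 0.12 at the high dose, Gls2 at -0.14 ± 0.09 and Hal at -0.06 ± 0.09. Otc was at -0.04 at the high dose without female replicate 4. The high-dose values of Asl (0.05), Glul (0.09) and Sds (0.20) leaned on the same library and became -0.04, 0.03 and 0.06 without it, and Sds became 0.03 without male replicate 8. Over the 9 tested members the median was -0.10 at the low dose and 0.03 at the high dose, against 0.00 over all genes tested at each. The difference between the dose effects of liver and duodenum passed for no member (edgeR, 0% of 15949 genes at either dose; 1473 and 2353 unadjusted, 7 and 11 by DESeq2, 0 by voom). Cps1 had the smallest p among the 10 there, with -0.39 ± 0.14 at the low dose (edgeR adjusted p = 0.481).

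In stomach, the gene with the most reads, Glul, had medians of 1210, 1174 and 1058 CPM. Its high-dose difference was -0.14 ± 0.07 (edgeR adjusted p = 0.215), with -0.26 in batch 1 and -0.00 in batch 2, and it passed by limma voom alone (-0.20 ± 0.06, adjusted p = 0.0281). Ass1, Asl, Arg1, Gls2 and Arg2 lay between -0.15 and 0.17 at the high dose. Females and males differed in the high-dose effect for no member (0% of all genes in each tissue by edgeR; 307 unadjusted in liver, 302 in duodenum and 1187 in stomach, and 0 by DESeq2 and voom in each). Stomach Ass1 had the smallest of these p-values, with 0.48 ± 0.15 (edgeR adjusted p = 0.629).

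**Figure D3:**
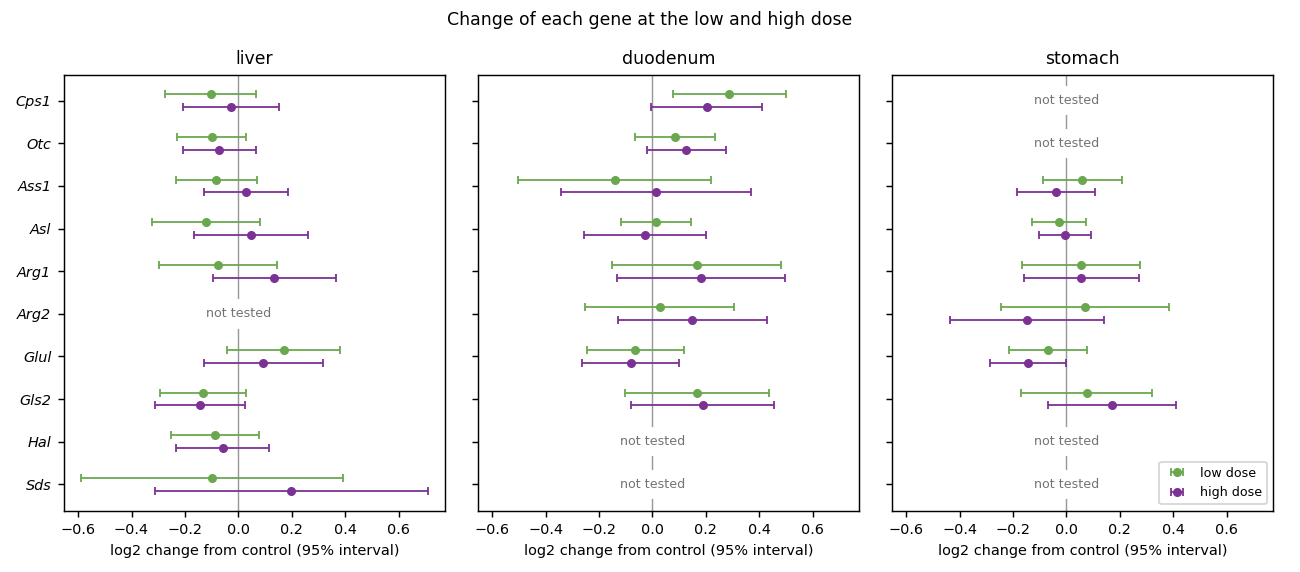
Log2 difference from vehicle at the low and high dose for each member tested in liver, duodenum and stomach (horizontal axis; points, fitted values; bars, 95% interval from the standard error). Standard errors were derived from p, so bars of very small differences are unstable. No member passed the adjusted threshold, and the largest shift from 0 relative to its error is that of duodenal Cps1 at the low dose, 0.29.

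Among the other listed enzymes, regulators and zone genes, few were called at a dose. At the high dose in duodenum 3 of 10 tested genes of the serine, glycine and threonine list rose: Shmt1, the cytosolic serine hydroxymethyltransferase, by 0.34 ± 0.10 (edgeR adjusted p = 0.0218), Gcsh of the glycine cleavage system by 0.36 ± 0.13 and Psat1 of serine synthesis by 0.41 ± 0.14. The zone lists each had calls downward, with Rnf43 at -0.34 ± 0.12, Tbx3 at -0.70 ± 0.21 and Cdh1 at -0.27 ± 0.07. These are shares of 3 in 10, 2 in 8 pericentral and 1 in 6 periportal genes beside 16.3% of all genes. None of these 6 genes was called with the ribosomal share as a covariate, where Shmt1 was at 0.10, Gcsh at -0.02 and Psat1 at 0.11 and no gene of the table was called, nor in batch 1 alone. Batch 2 alone called Tbx3 and Cdh1, and so did the fit without the batch term. In that fit Shmt1, Gcsh, Psat1 and Rnf43 did not pass (edgeR adjusted p = 0.0574, 0.0621, 0.0704 and 0.0555). The list medians at the high dose were 0.13 for serine, glycine and threonine, 0.04 for urea cycle support and 0.07 for glutamine, arginine, ornithine and proline. In stomach 1 of 15 branched chain genes was called, Mccc1, at -0.24 ± 0.07 (edgeR adjusted p = 0.0333), where 4.49% of all genes were. It was at -0.20 with the ribosomal share as a covariate (edgeR adjusted p = 0.422) and at -0.26 without the batch term (adjusted p = 0.0828), and neither batch called it alone. No listed pathway, regulator or zone gene was called at a dose in liver, or at the low dose in any tissue.

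Sex separated some of the members in liver. In control livers Hal was higher in females and Sds and Gls2 were higher in males, each with no overlap between the sexes, and Asl was higher in females with overlap. By edgeR 4 of 9 tested members differed, 2 higher in females and 2 lower, where 22.8% of all genes did (10.5% higher in females, 12.3% lower) and 4.27% of all genes had no overlap. Hal stood at 499, 609 and 696 CPM as lowest, median and highest of 8 females and at 212, 282 and 384 CPM in 8 males, a log2 difference of 1.08 ± 0.12 (adjusted p = 3.82e-09). Sds stood at 3.09, 7.54 and 15.8 CPM in females and 20.6, 37.3 and 97.5 CPM in males, a difference of -1.99 ± 0.38 (edgeR adjusted p = 7.98e-05). Gls2 stood at 142, 170 and 189 CPM in females and 201, 257 and 392 CPM in males (-0.63 ± 0.12, edgeR adjusted p = 8.17e-05).

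The middle of the urea cycle was less divided. Asl stood at 278, 454 and 624 CPM in females and at 273, 302 and 470 CPM in males (0.50 ± 0.15, edgeR adjusted p = 0.0121), and without the batch term it did not pass (0.36 ± 0.17, adjusted p = 0.124). Ass1 was at 0.24 ± 0.11 (adjusted p = 0.110), Otc at -0.20 ± 0.10 (0.127) and Arg1 at -0.40 ± 0.16 (0.0717) by the same edgeR test. Cps1 and Glul were at 0.05 ± 0.13 and 0.08 ± 0.16. Within batch 1 and batch 2 alone, Hal was at 0.99 and 1.19, Sds at -1.29 and -2.26, Gls2 at -0.37 and -0.81 and Asl at 0.73 and 0.35. With fewer libraries, batch 1 called Hal and Asl, and batch 2 called Hal, Sds and Gls2.

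The same contrast in the dosed groups compared other libraries than the controls. Both came from the same fit of all liver libraries and share its estimates of spread and batch. The dosed groups are therefore not an independent repeat. Among low-dose livers Hal stood at 361, 522 and 827 CPM in females and 231, 293 and 351 in males, and among high-dose livers at 431, 702 and 824 against 196, 265 and 305. Asl was called in both dose groups too, by 0.73 at the low dose and 0.72 at the high dose, the latter 0.52 without female replicate 4 (edgeR adjusted p = 0.0141). Sds was lower in females at the high dose by -1.79 ± 0.39 (edgeR adjusted p = 0.000759), and by -2.08 without that library. Otc was called at the high dose with it (-0.30, edgeR adjusted p = 0.0384) and not without it (-0.22, adjusted p = 0.176), and Ass1 at the low dose (0.31 ± 0.11, adjusted p = 0.0387). The male excess of Sds was -0.95 ± 0.36 in the low-dose groups (edgeR adjusted p = 0.0510), and medians there were 12.8 and 25.7 CPM. For Gls2 it was -0.28 ± 0.12 in the low-dose groups (adjusted p = 0.0825) and -0.33 ± 0.13 in the high-dose groups (adjusted p = 0.0686) by edgeR. Hal was the member whose sexes stayed apart without overlap in all 3 treatment groups, and Gls2 overlapped in both dosed groups.

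**Figure D4:**
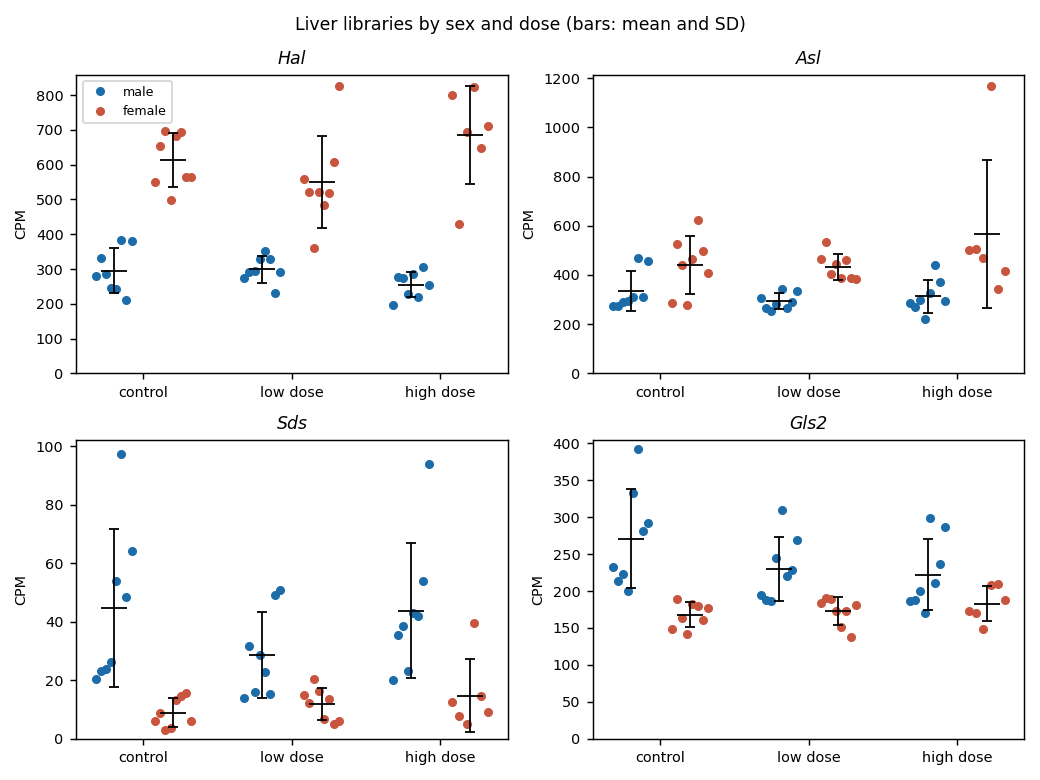
Levels of Hal, Asl, Sds and Gls2 in liver by sex and treatment (vertical axis, CPM; each point is 1 library; bars, mean and SD of each group). Female libraries lie above male ones for Hal in each treatment group, and control males lie above control females for Sds and Gls2.

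Other cell type markers also differed between control livers of the 2 sexes. Pancreatic acinar markers summed to 10.8 to 320 CPM in females and 0.0928 to 1.43 CPM in males, enterocyte markers to 324 to 638 CPM in females and 709 to 1494 CPM in males, and hepatocyte markers to 103322 to 152229 CPM and 93436 to 120315 CPM, though 4 of the 7 hepatocyte markers were lower in females by edgeR. Their part in the sex differences was not tested. The ribosomal protein share was similar, with medians of 1.17% and 1.13%. Among listed enzymes, 5 of 10 tested pericentral genes were higher in females and 1 lower, 4 of 11 urea cycle support genes were lower and 1 higher, and 4 of 11 of the serine, glycine and threonine list were lower. These counts stand beside 10.5% of all genes higher in females and 12.3% lower. The list medians were 0.74, -0.26 and -0.04, beside 0.00 over all genes tested.

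In control duodena and stomachs no member was called by sex, and few genes were (0.079% and 0.172% of all genes; 12 and 26 genes by edgeR). In the high-dose stomachs Ass1 was higher in females by 0.46 ± 0.10 (edgeR adjusted p = 0.0367), against -0.02 in controls. The sex difference itself was compared between liver and duodenum in controls, where 7.28% of all genes passed. Gls2 was the one member called, with a female minus male difference lower in liver by 1.09 ± 0.30 (edgeR adjusted p = 0.0136). That call rested on duodenum female control replicate 4, without which the value was -0.74 ± 0.27 (edgeR adjusted p = 0.0926), and it passed with any 1 of the other 14 control duodena left out. Pancreatic acinar markers in control duodena had a lowest, median and highest of 2.38, 1220 and 42199 CPM in females and 0.737, 125 and 1623 CPM in males, and their part in the rest of the difference was not tested. In duodenum alone Gls2 was higher in females by 0.39 ± 0.20, which did not pass (adjusted p = 0.935). For Asl the difference between tissues was 0.36 ± 0.15 (adjusted p = 0.170). Hal and Sds had almost no counts in duodenum, so their difference between tissues is not read here.

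Beyond group and batch, libraries of a tissue still varied, and some members varied together. With group and batch removed, the standard deviation of log2 CPM in liver was lowest for Otc (0.18) and highest for Sds (0.74), beside a median of 0.33 over all genes. Over the 46 livers, 9 of 36 pairs of members were correlated, all positively (permutation test of Pearson's r with 100000 resamples, adjusted over the 36 pairs), and the same 9 passed by Spearman's rho. The share among pairs of other genes was not computed, so this count is not read as particular to the members. Cps1 and Ass1 had r = 0.62 (permutation p = 1e-05, the smallest the resamples can give, adjusted p = 0.00036) and rho = 0.56 (permutation adjusted p = 0.00108). Without the 2 libraries farthest on the first gene r was 0.57, and within batches 1 and 2 it was 0.59 and 0.66. Otc and Gls2 had r = 0.53 (permutation p = 0.00018, adjusted 0.00162) and rho = 0.58, Gls2 and Sds r = 0.54 (permutation p = 0.00014, adjusted 0.00162) and rho = 0.46, and Otc and Ass1 r = 0.53 (permutation p = 0.00014, adjusted 0.00162) and rho = 0.53. The other 5 pairs, Otc with Arg1, Ass1 with Arg1, Ass1 with Gls2, Arg1 with Gls2 and Asl with Sds, had r from 0.48 to 0.49. All 9 kept their sign in both batches and passed again without female high-dose replicate 4.

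In liver the ribosomal protein share was correlated with Cps1 (r = -0.66), Asl (0.55) and Arg1 (0.50) over the same libraries, given here as a description. Summed endothelial markers had r = -0.56 with Arg1, -0.54 with Gls2, -0.45 with Asl and -0.40 with Otc, but 0.38 with Cps1 and 0.30 with Glul. Macrophage markers had -0.47 with Otc and -0.38 with Ass1. Crypt and proliferation markers had 0.50 with Cps1, -0.47 with Gls2 and -0.43 with Arg1. The part of these markers in the liver pairs was not tested. With the ribosomal share removed as well, 13 pairs were called, and Cps1 with Asl went from -0.04 to 0.56 and Cps1 with Arg1 from -0.07 to 0.44 (permutation adjusted p = 0.00036 and 0.0104). The 9 pairs stayed called and 4 were added, the other 2 being Cps1 with Otc (0.37) and Ass1 with Sds (0.38).

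The duodenum showed a different set. Of 28 pairs 12 were called over 47 libraries, 7 positive and 5 negative, of which 7 also passed by rho. Here too the share among pairs of other genes was not computed. Arg2 and Glul moved in opposite directions, with r = -0.83 (permutation p = 1e-05, adjusted 7e-05) and rho = -0.65 (permutation adjusted p = 9.33e-05). Otc and Arg2 moved together, with r = 0.78 (permutation p = 1e-05, adjusted 7e-05) and rho = 0.76. Arg1 and Arg2 had r = 0.63 and rho = 0.64, Otc and Arg1 r = 0.61 and rho = 0.55, and Otc and Glul r = -0.62 and rho = -0.49. Without the 2 farthest libraries these were -0.68, 0.73, 0.62, 0.50 and -0.46.

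Those 5 pairs were the ones called without male control replicate 1, with r of -0.65, 0.75, 0.64, 0.55 and -0.48 in the same order. The pairs of Cps1 rested on that library: Cps1 with Arg2 went from 0.66 to 0.23, Cps1 with Otc from 0.48 to 0.24 and Cps1 with Glul from -0.58 to -0.15, and none of these 3 passed by rho. Markers of other cell types moved with the same genes over the 47 libraries. Summed smooth muscle markers had r = -0.72 with Otc, -0.72 with Arg2, -0.64 with Arg1 and 0.62 with Glul (-0.65, -0.68, -0.59 and 0.51 without male control replicate 1). Endothelial markers had r = -0.71, -0.70, -0.63 and 0.65 with the same genes, and enterocyte markers 0.39, 0.47, 0.29 and -0.50. Cps1 had r = -0.36 with the smooth muscle markers, and -0.09 without that library. The part of tissue makeup in the pairs was not tested.

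**Figure D5:**
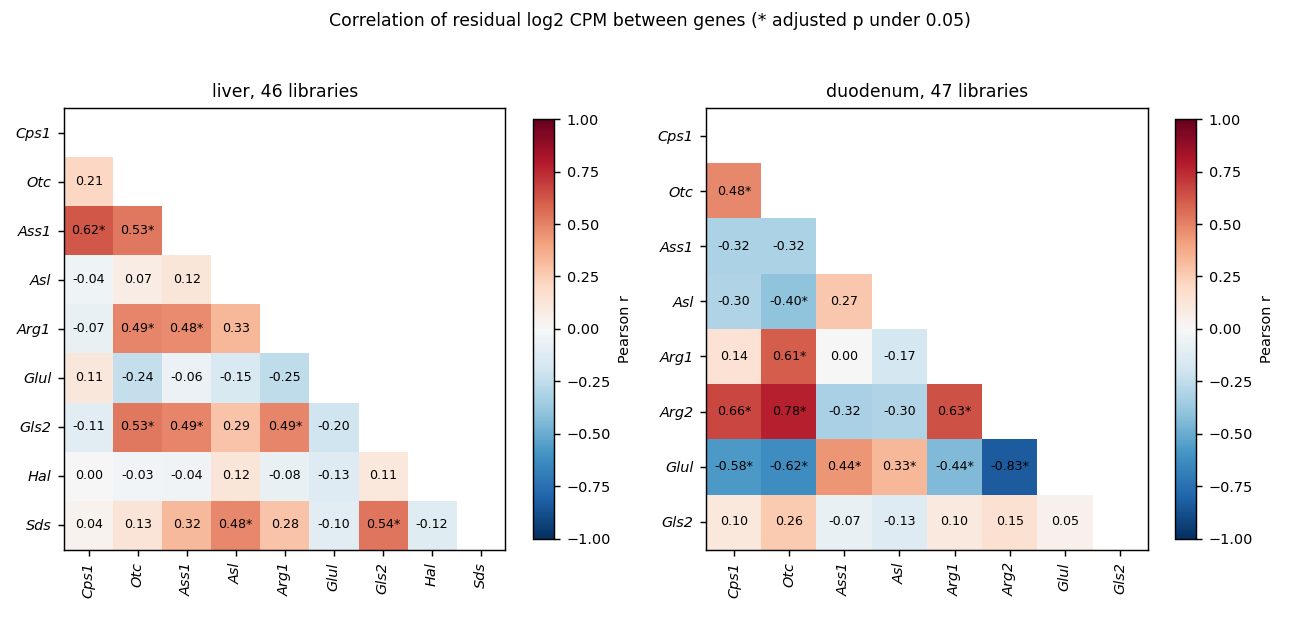
Pearson's r between members after removal of group and batch, in 46 liver and 47 duodenum libraries (colour scale and printed values, r from -1 to 1; *, permutation adjusted p under 0.05). In liver the called pairs are all positive, with Cps1 and Ass1 highest at 0.62, and in duodenum Glul runs against Arg2 (-0.83) and Otc (-0.62).

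Genes among the most like each member over the 46 livers were listed by Pearson's r after the same removal, as a description; all share the libraries and their depth. Cps1 was most like Syne2 (0.82) and Napb (0.81), Ass1 like Acmsd (0.66) and Dbt (0.66), and Asl like Gabarapl1 (0.77) and Smpdl3a (0.73). Arg1 was most like Uox (0.76) and Leap2 (0.74), Gls2 like Gstz1 (0.71) and Ube2v1l1 (0.70), Hal like Sgk2 (0.54) and Chst13 (0.54), and Sds like Got1 (0.74) and Tmt1a (0.67). Otc had r = 0.76 with Isoc1. Glul was most like Galnt2 (0.64) and Slc1a2 (0.60), the latter a glutamate transporter of the pericentral list, and had r = 0.51 with Rhbg, the ammonia transporter of that list. Of the same list, Oat (ornithine aminotransferase) had r = 0.62 with Ass1 and 0.55 with Cps1, and 0.05 with Glul.

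Transcript estimates were similar between tissues where the genes were well read. Cps1, Arg1 and Hal each had 1 annotated transcript with counts. For Otc, transcript ENSRNOT00000004686 took 60.2 ± 12.9% (SD, n = 16) of the gene's counts in control livers and 62.2 ± 13.5% (n = 15) in control duodena, and ENSRNOT00000113098 took 38.5 ± 12.8% and 36.3 ± 13.2%. For Glul, ENSRNOT00000075480 took 58.1% in liver, 58.0% in duodenum and 57.6% in stomach on average. For Ass1, ENSRNOT00000093365 took 73.1 ± 8.18% in liver and 79.6 ± 25.97% in duodenum, where the gene had few counts. These differences were within the spread between libraries.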

How the data were processed

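PolyA RNA-seq of liver, duodenum and stomach was used. Estimated counts per gene and per transcript were deposited by the authors. Salmon 1.10.3, STAR 2.7.11b, UMI-tools 1.1.5, Trim Galore 0.6.10, FastQC 0.12.1, cutadapt 4.9 and MultiQC 1.28, and the build mRatBN7.2, are named without roles, per the submitters' processing notes. The use of molecular identifiers and of strand in counting was not given in the sources used here.

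The expected counts the authors deposited were rounded, which changed no library total by more than 0.00064%. Genes passed filterByExpr (minimum count 10, total 15). The main test was edgeR 4.0.16 in R 4.3.3 (quasi-likelihood, TMM, 1 term per tissue, sex and dose, with batch), adjusted by Benjamini-Hochberg over all genes of a fit at 0.05. Standard errors were derived from p and are unstable for very small differences. DESeq2 1.42.0 and limma 3.58.1 (voom) were alternatives. The calculations were tested on simulated data. Total counts per library, from 4947825 to 25503801, set the counting precision. CPM for levels is unscaled; levels are not compared between genes, since no lengths were used. The labels do not say that libraries are separate animals, so the tests rest on sample-to-sample spread that may be technical. They do not say what the 3 batches are.

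The 10 genes and the lists were chosen with earlier results of these data known. All 10 are named throughout. Other genes are named by rule: called list genes at a dose (at most 4 per list), the 3 largest differences per list between liver and duodenum, and the 2 likest genes per member in liver; 2 genes so named are not reported here. Oat and Rhbg were named after their values were seen. Also chosen after seeing the data were the sex contrast in dosed groups and in single batches, its comparison between liver and duodenum, library totals without scaling, and leaving out the 2 libraries that stood apart, leaving out each control duodenum in the tissue comparison of sex, and other fits for the list genes called at a dose. Of the listed genes 9 are not in the tables. No 2 libraries were identical (highest r 0.9955).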

Additional observations from a re-analysis of the deposited data

Results flagged for a closer look

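Of 138 sets of values, each of 1 gene in 1 group of 6 to 8 libraries, 12 held a library apart. Its gap to its nearest neighbour was large for the range of the set (Dixon's test at 95%). Chance gives about 1 in 20 independent sets, but genes of the same library are not independent, so the 12 are not read against it.

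Of the 12, 4 came from 1 liver, female high-dose replicate 4. It had the highest Asl of its group (1167 CPM, next 505), the highest Glul (839.8 CPM, next 430.8), the highest Sds (39.55 CPM, next 14.63) and the lowest Otc (280.1 CPM, next 357.7).

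A further 2 were in other livers: Cps1 at 2499 CPM in male low-dose replicate 7 (next 3496), and Sds at 94.06 CPM in male high-dose replicate 8 (next 53.84). In duodenum, female low-dose replicate 1 had the highest Arg1 (6.978 CPM, next 4.955) and Ass1 (9.709 CPM, next 5.056) of its group, female high-dose replicate 2 the highest Asl (11.77 CPM, next 8.584), female control replicate 2 the highest Ass1 (8.031 CPM, next 4.635) and male control replicate 1 the highest Glul (248.2 CPM, next 138.3). In stomach, male high-dose replicate 2 had the highest Arg1 (11.67 CPM, next 7.887).

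The sex difference of Gls2 differed between liver and duodenum, with a log2 value of -1.093 (edgeR adjusted p = 0.0136). It was -0.74 without duodenum female control replicate 4 and then did not pass (edgeR adjusted p = 0.0926).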

How the results depend on the processing

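Of 2306 values of members with 1 library left out, 2263 kept direction and call, 42 changed sign while uncalled and 1 lost a call. They covered the dose comparisons, where no member had a call to lose, and the sex difference of liver against duodenum, where Gls2 alone had. The tissue differences and the sex differences within a tissue were not checked in this way. Of 1436 values under other settings, 1337 kept both, 84 changed sign while uncalled, 8 lost a call, 6 gained a call and 1 reversed. For sex, those settings included the dosed groups in place of controls. No member was called at a dose with any 1 of the 46, 47 or 48 libraries left out. Genes called then ranged from 1146 (without female control replicate 1) to 3700 (male high replicate 6) for the duodenum high dose, 0 to 128 (female low replicate 7) for its low dose, 4 (male high replicate 4) to 1465 (female control replicate 2) for the stomach high dose, 0 to 1 for its low dose and 0 to 0 in liver. With each of 15 control duodena left out, the sex difference of liver against duodenum had 1042 (female replicate 2) to 1246 genes (male replicate 7) and 0 to 1 members, Gls2 being lost without female replicate 4. The cause of these changes was not tested.

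Genes called in the duodenum at the high dose (main 2481) were 0 in batch 1, 1340 in batch 2, 1569 without the batch term and 0 with the ribosomal share as a covariate; batch 2 called 1 member, Gls2. At the low dose (main 0) they were 18 by DESeq2, 245 in batch 2, 3 by voom and 6 without batch 3. In stomach at the high dose (main 680) they were 1025 by DESeq2, 2 in batch 1, 0 in batch 2, 345 with only the groups compared, 1863 by voom (with 1 member, Glul), 4 without the batch term, 420 without the filter and 1 with the ribosomal share, and at the low dose 28 by DESeq2. Between liver and duodenum DESeq2 called 7 genes for the low dose effect and 11 for the high, where the fit without batch called 1. For sex, batches 1 and 2 called 947 and 1489 genes in liver (main 2995), with 2 members in batch 1. In duodenum (main 12) batch 1 called 7, and stomach (main 26) gave 59 by DESeq2, 7 in batch 2 and 128 by voom. The high-dose stomachs, which are other libraries than the controls, called 1 member, Ass1, at 0.4588. It is the value counted as reversed, though it was -0.02 ± 0.10 and uncalled in controls. The test of sex by high dose did not pass for it (edgeR adjusted p = 0.629).

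With the ribosomal share removed, liver pairs Cps1 with Arg1 and with Asl reversed to 0.4367 and 0.558, and 13 liver and 18 duodenum pairs were called (main 9 and 12). Duodenum had 5 without male control replicate 1.

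With the replicate block, stomach had 1071 genes at the high dose and 56 by sex, and liver gained Arg1 by sex (-0.4557). The labels do not say that a number marks an animal or day. Same-numbered libraries within a tissue had median r of 0.0238, 0.0214 and 0.0641 in liver, duodenum and stomach. Across tissues, those of the same library number had 0.123, 0.113 and 0.180 (other pairs -0.000835, -0.00298 and -0.00283) for liver with duodenum, liver with stomach and duodenum with stomach, but the lowest pairs were at -0.301, -0.0821 and -0.0792. Of them 10 of 45, 10 of 46 and 14 of 47 were best with their own number, a hint from the data and not the design. A block by that number called 13217, 13326 and 12419 genes between the tissues, with 10, 10 and 9 members as without it, and 0 for the dose effects of liver against duodenum.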
